A study of Rattus norvegicus with 12 samples.

Results

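The genes of 10 intermediate filament proteins were followed in a rat liver cell line under long exposure to a fluorinated surfactant: the keratins Krt7, Krt8, Krt18, Krt19 and Krt14, the mesenchymal filament gene vimentin (Vim), nestin (Nes), desmin (Des) and the lamins Lmna and Lmnb1. They were chosen by name, each through its brightest array probe set that carries that 1 symbol, and all 10 were found among 22093 genes measured. TRL1215, a line the labels place in rat liver, was grown in William's E medium with serum and passaged weekly. The control group was passage-matched and untreated, and the groups T10, T50 and T100 had perfluorooctanoic acid (PFOA) added at 10, 50 or 100 µM. Each of the 4 groups has 3 arrays, and the treatment labels of the exposed groups give 38 weeks. Controls and exposed cells come from 1 line, and nothing in the labels says whether the 3 replicates were separate cultures, so p-values measure only the spread between these samples.

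Intermediate filaments are rope-like polymers. Keratins assemble only as pairs of an acidic type I chain and a basic type II chain, and simple epithelia such as hepatocytes use Krt8 with Krt18, to which bile duct cells add Krt7 and Krt19, whereas Krt14 pairs with Krt5 in basal cells of layered epithelia. Vimentin fills fibroblasts and many cultured cells, desmin marks muscle and hepatic stellate cells, and nestin marks progenitor cells. Lamins line the inner face of the nuclear envelope; A-type lamins stiffen the nucleus, and B-type lamins stay bound to the membrane.

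All levels below are deposited log2 intensities, read within 1 probe set and not between genes. The background of a group is the 95th percentile of 1153 negative-control probe sets, averaged over its 3 arrays: 5.42 for control cells, 5.77 at 10 µM, 5.52 at 50 µM, 5.65 at 100 µM. A value repeated exactly on several arrays is called held here. Held values on at least 3 arrays were found for 852 of the 22093 genes, and for 368 of the 511 whose mean exceeded 12; for 160 genes all 12 arrays read the same. The highest value of the table, 19.93, acted as a ceiling. Hepatocyte markers were below background in every group (0 of 11 measured), and so were epithelial junction markers (0 of 9, Cdh1 and Epcam among them). Of 9 biliary and progenitor markers, 2 were above background, Cftr and Gpc3, and of 13 stellate, fibroblast and smooth muscle markers 3 were, Acta2, Col1a1 and Col3a1. The summed log2 level of those 13 spanned 65.3 to 66.3 in control cells, 62.2 to 64.7 at 10 µM, 62.7 to 65.5 at 50 µM and 70.1 to 72.7 at 100 µM. The higher sum at 100 µM was not a rise of the whole list. Against control 5 of the 13 lay higher there and 8 lower, with a median of -0.01, and 10 were not above background. Acta2, Col1a1 and Col3a1 differed by 2.04, 2.36 and 1.71. Striated muscle markers were below background (0 of 8), and 1 of 7 endothelial (Tek) and 1 of 7 leukocyte markers (Cd14) were above it. Of all these markers limma called, in log2 change, Gpc3 at 1.40 (adjusted p = 0.00141), Acta2 at 2.04, Col1a1 at 2.36 and Itgb4 at -0.20 for 100 µM against control. At 10 µM it called Acta2 at -2.21, Tagln at -0.38, Tek at -0.64 (adjusted p = 0.0258) and the T cell gene Cd3e at -0.55 (adjusted p = 0.00111). Cd3e was also called at 50 µM, at -0.38 (adjusted p = 0.00482). Of these called markers, Itgb4, Tagln and Cd3e were below background in every group. Over all genes limma called 0.869% at 10 µM, 1.31% at 50 µM and 1.46% at 100 µM against control. The part of these markers in the results below was not tested.

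Of the 10 genes, 5 were above background in all 4 groups (Krt8, Krt14, Vim, Lmna and Lmnb1) and 5 were below it on every array (Krt7, Krt18, Krt19, Nes and Des). Of the 10, 5 held 1 value on 3 or more arrays (Krt8, Vim, Krt19, Lmna and Krt14). The RefSeq promoter table of the GRCr8 assembly, which gives 250 bases before and 50 after each gene start, had 7 of the 10 genes. Krt8 and Krt18 are neighbours on chromosome 7 in that assembly, on opposite strands with 25829 bases between their starts. They are shown because Krt8 was above background and Krt18 below it. The value of Krt8 was held on every array, and its level is not set against that of Krt18. Lmnb1 is shown as the gene that differed between groups. The windows are chr7:135010290-135010589 (minus strand) for Krt8, chr7:135035918-135036217 (plus strand) for Krt18 and chr18:52373689-52373988 (plus strand) for Lmnb1. Capitals mark matches on either strand to any of 4 motifs: the TATA box spelled TATAAA, the GC box spelled GGGCGG, the box named CCAAT after its letters, and the AP-1 motif spelled TGANTCA.
Krt8: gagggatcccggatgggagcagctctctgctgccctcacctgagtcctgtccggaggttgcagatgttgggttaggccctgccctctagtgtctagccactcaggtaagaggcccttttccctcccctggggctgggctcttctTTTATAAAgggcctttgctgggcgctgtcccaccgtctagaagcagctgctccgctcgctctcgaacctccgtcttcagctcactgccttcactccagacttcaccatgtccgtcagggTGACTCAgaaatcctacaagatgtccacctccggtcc
Krt18: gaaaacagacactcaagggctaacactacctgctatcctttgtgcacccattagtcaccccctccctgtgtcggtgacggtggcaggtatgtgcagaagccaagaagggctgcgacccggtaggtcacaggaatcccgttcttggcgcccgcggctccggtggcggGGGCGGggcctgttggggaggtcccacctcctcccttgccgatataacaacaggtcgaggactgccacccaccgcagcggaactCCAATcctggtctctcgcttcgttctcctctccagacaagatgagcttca
Lmnb1: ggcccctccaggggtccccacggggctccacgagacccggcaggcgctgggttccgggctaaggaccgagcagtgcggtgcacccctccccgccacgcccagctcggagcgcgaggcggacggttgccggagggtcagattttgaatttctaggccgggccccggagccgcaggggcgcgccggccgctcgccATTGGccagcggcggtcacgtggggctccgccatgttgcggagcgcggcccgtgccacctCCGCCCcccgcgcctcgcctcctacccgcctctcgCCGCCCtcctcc
Krt8 had 2 overlapping TATA box matches, 1 on each strand, and 1 AP-1 match. Krt18 had 1 GC box and 1 CCAAT box, and Lmnb1 had 2 GC boxes and 1 CCAAT box. Among 33469 promoters of the same length, 14.2% held a TATA box, 33.1% a GC box, 37.5% a CCAAT box and 7.33% an AP-1 match, and of the 7 matched here 2, 6, 3 and 2 did. A match describes the letters only.

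Krt8, the type II keratin of simple epithelia, read 19.06 on all 12 arrays. The value was the same to every deposited digit, so its difference between any 2 groups was 0 by construction and no change could be read. Krt18, its usual partner, was below background on every array. Its values were 3.74, 3.84 and 3.70 on the control arrays, 3.84, 3.72 and 3.89 at 10 µM, 3.64, 3.76 and 3.75 at 50 µM, and 3.76, 3.72 and 3.72 at 100 µM. The groups overlapped, and the differences from control lay between -0.05 and 0.05, with a 95% interval at 100 µM of -0.14 to 0.09. A second Krt18 probe set ran from 3.53 to 3.86.

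Krt7 and Krt19, the bile duct keratins, were also below background throughout. Krt7 ran from 3.89 to 4.06 over the 12 arrays, and its second probe set from 3.46 to 3.77. Krt19 ran from 3.70 to 3.80 and held 3.79 on 7 arrays, of which 1 was control, 2 were T10, 2 were T50 and 2 were T100. The groups overlapped for both genes in every comparison with control.

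**Figure D1:**
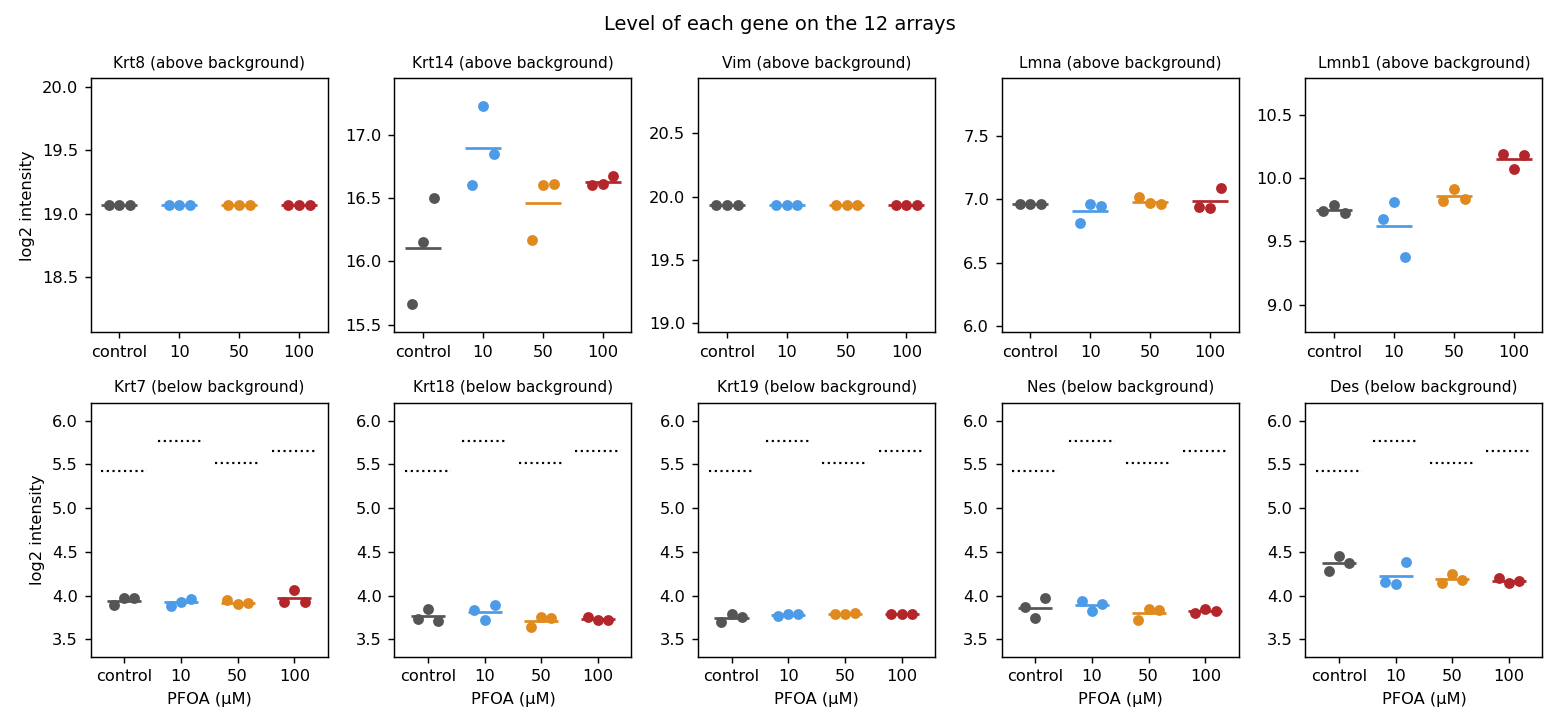
Log2 intensity (y axis) of the 10 genes in control cells and at 10, 50 and 100 µM PFOA (x axis); points are arrays, short lines group means, and dotted lines the background of each group, drawn in the lower row. Krt8 and Vim are flat at 19.06 and 19.93, the upper panels each span 2 log2 units, and the lower 5 genes lie below background on every array.

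Krt14, the type I keratin of basal epithelial cells, was higher on the T10 and T100 arrays than on the control arrays, but the difference did not pass the test. It read 15.66, 16.15 and 16.50 in control and 16.60, 17.22 and 16.85 in T10. In T50 it read 16.17, 16.60 and 16.61, and in T100 16.60, 16.61 and 16.67. All 3 T10 arrays and all 3 T100 arrays lay above all 3 controls, while T50 overlapped control. In such bulk RNA, more cells that express a gene and more RNA per cell cannot be told apart. Exactly 16.60 was held on 3 arrays (T10 replicate 1, T50 replicate 2 and T100 replicate 1), and 2 more lay within 0.01 of it.

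The control arrays of Krt14 spanned more than any exposed group, with a mean of 16.11 ± 0.42 (SD, n = 3), against 16.89 ± 0.31 at 10 µM, 16.46 ± 0.25 at 50 µM and 16.63 ± 0.04 at 100 µM. The difference from control was 0.79 ± 0.22 log2 units (SE) at 10 µM, or 1.72-fold, with a 95% interval of 0.30 to 1.27 and an adjusted p of 0.164 in limma. At 50 µM it was 0.35 (interval -0.13 to 0.84; adjusted p = 0.644) and at 100 µM 0.52 (0.04 to 1.01; adjusted p = 0.362). No pair of exposed groups passed either, at 0.409 for T50 against T10, 0.573 for T100 against T10 and 0.866 for T100 against T50 (adjusted p). After quantile normalization the differences were 1.38 at 10 µM (adjusted p = 0.0301), 0.87 at 50 µM and 1.13 at 100 µM (adjusted p = 0.0462). Centring each array on its genes above background gave 0.90 at 10 µM (adjusted p = 0.0335). Both settings also moved genes whose deposited values do not vary. At 10 µM centring put Krt8 and Vim at 0.11, and quantile normalization put Krt8 at 0.11 and left Vim at 0. Over all alternatives the adjusted p at 10 µM ran from 0.0301 to 0.618. Without control replicate 1, the lowest array, the differences were 0.13 at 50 µM and 0.30 at 100 µM. The F test over the 4 groups gave Krt14 an adjusted p of 0.213, which became 0.0390 after quantile normalization and 0.0411 after centring.

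Vim, the type III filament of mesenchymal and cultured cells, read 19.93, the ceiling of the table, on all 12 arrays. Its level could not be resolved there. Nes, a filament of progenitor cells, was below background and ran from 3.72 to 3.97, with overlapping groups.

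Des, which marks muscle and stellate cells, was below background on every array yet had its highest group mean in control. Its values were 4.28, 4.45 and 4.38 on the control arrays, 4.15, 4.14 and 4.39 at 10 µM, 4.15, 4.24 and 4.18 at 50 µM, and 4.20, 4.14 and 4.17 at 100 µM. The T50 and T100 arrays all lay below the controls, and T10 replicate 3 lay among them. The difference from control was -0.14 at 10 µM, -0.18 at 50 µM and -0.20 at 100 µM (interval -0.35 to -0.05), with adjusted p of 0.427, 0.349 and 0.233. No fold is given for a gene below background.

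Lmna, which encodes the A-type lamins, read 6.96 exactly on all 3 control arrays, on T10 replicate 2 and on T50 replicate 3. The other arrays read 6.82 and 6.95 at 10 µM, 7.02 and 6.97 at 50 µM, and 6.94, 6.94 and 7.09 at 100 µM. The differences from control were -0.05, 0.02 and 0.03 log2 units at 10, 50 and 100 µM, and the interval at 100 µM was -0.08 to 0.14. Because the 3 controls were held at 1 value, their spread was 0 and the interval rests on the exposed arrays and on the prior of the fit.

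Lmnb1, a B-type lamin, was the 1 gene of the 10 that passed a test, and its highest level was at 100 µM. On the control arrays it read 9.74, 9.79 and 9.72, and on those of T10 9.68, 9.81 and 9.38. At 50 µM it read 9.82, 9.91 and 9.84, and at 100 µM 10.19, 10.07 and 10.18. All 3 T100 arrays lay above all 9 others, as they did for 2.54% of all genes. From low to high, the group means were 9.62 ± 0.22 at 10 µM, 9.75 ± 0.04 without PFOA, 9.86 ± 0.05 at 50 µM and 10.15 ± 0.06 at 100 µM (SD, n = 3). T10 overlapped control, and T50 lay above control without overlap, by 0.11 (interval -0.09 to 0.31).

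Lmnb1 rose from 10 to 100 µM by 0.53 ± 0.09 log2 units (SE; 1.44-fold; interval 0.33 to 0.73; adjusted p = 0.0177 in limma). The F test over the 4 groups also passed (adjusted p = 0.0365). Against control the difference at 100 µM was 0.40 ± 0.09 (1.32-fold; interval 0.20 to 0.60), which missed the threshold at an adjusted p of 0.0686. Against T50 it was 0.29 (interval 0.09 to 0.49; adjusted p = 0.215). T50 against T10 gave 0.23 (adjusted p = 0.263), and T10 against control -0.13 (adjusted p = 0.611). Without T10 replicate 3 these were 0.11 and -0.01.

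The call between T100 and T10 ended without T100 replicate 1 (adjusted p = 0.0561) or replicate 3 (0.0655), after quantile normalization (0.24; adjusted p = 0.380), with every array's 95th percentile of gene values as covariate (0.37; adjusted p = 0.671) and with only these 2 groups in the fit (adjusted p = 0.145). Over all genes the calls between T100 and T10 went from 681 to 3 with the covariate and to 52 with only these 2 groups. The F test for Lmnb1 passed in 6 of 20 alternatives, with adjusted p from 0.0118 to 0.401, and in 2 of the 12 fits that left out 1 array. The difference from control at 100 µM passed in 5 of 21 alternatives, with adjusted p from 0.0117 to 0.224. Without T10 replicate 3 its adjusted p was 0.0117, and that of T100 against T50 was 0.0335. The 95th percentile of gene values averaged 9.42 at 10 µM, 9.57 both without PFOA and at 50 µM, and 9.66 at 100 µM. It differed between the groups compared, so the design cannot tell it apart from the dose. Its part in the levels of Lmnb1 or Krt14 was not tested.

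**Figure D2:**
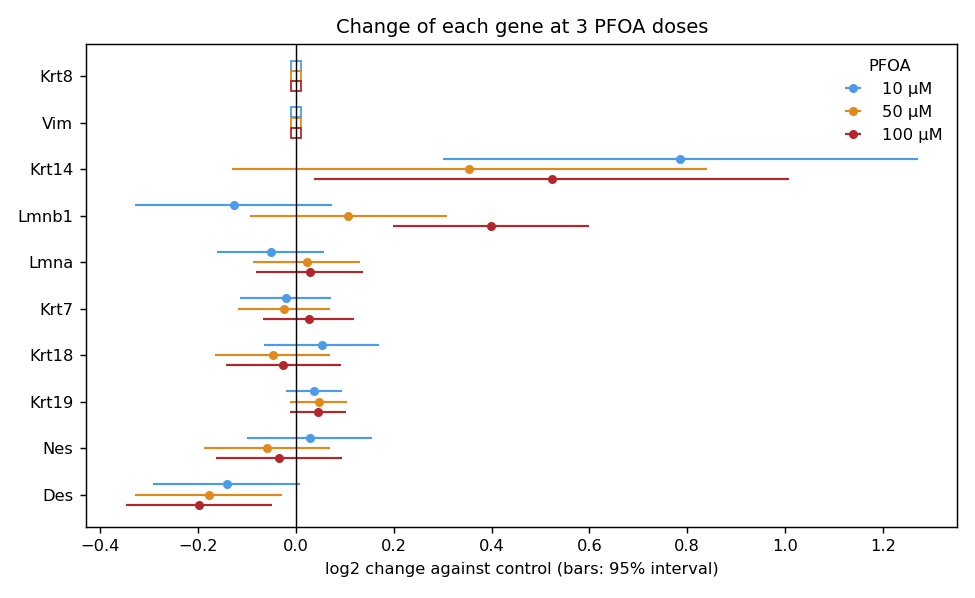
Log2 change against control (x axis) of the 10 genes (y axis) at 10, 50 and 100 µM PFOA; points are fitted differences of 3 against 3 arrays, bars 95% intervals, and open squares Krt8 and Vim, whose values were held on all arrays. The widest intervals belong to Krt14, and the intervals of Lmnb1 at 100 µM and of Krt14 at 10 and 100 µM lie above 0, as those of Des at 50 and 100 µM lie below it.

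Against control, limma called 0 of the 10 genes at 10 µM, 0 at 50 µM and 0 at 100 µM, where it called 0.869%, 1.31% and 1.46% of all genes. Before adjustment 1, 1 and 3 of the 10 had p under 0.05 (Krt14; Des; Krt14, Lmnb1 and Des), beside 12.6%, 10.5% and 12.4% of all genes. Arrays did not overlap control for 1, 2 and 3 of the 10, which compares with 17.0%, 17.0% and 18.1% of all genes. At 10 and 50 µM 4 of the 10 lay higher than control and 4 lower. Their median of 0 was therefore the fixed value of the held genes Krt8 and Vim and says nothing of a shift. At 100 µM, where those 2 also entered it, the median of the 10 was 0.01. Over all genes the median was 0.00 at each dose. Over genes above background the median was -0.09 at 10 µM, 0.00 at 50 µM and 0.05 at 100 µM. These 3 comparisons share the control arrays. Between exposed groups 0 of 10 were called for T50 against T10 (2.01% of all genes), 1 for T100 against T10 (Lmnb1; 3.08%, or 2.73% called higher) and 0 for T100 against T50 (1.16%). Before adjustment Lmnb1 alone of the 10 had p under 0.05 in each of these 3, beside 14.5%, 18.2% and 11.0% of all genes. The F test called 1 of 10, where it called 3.80% of all genes.

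The spread within groups differed among the genes. The residual SD was 0.29 for Krt14 and 0.12 for Lmnb1, and 0.02 to 0.09 for the genes below background, beside a median of 0.12 over all genes that were above background and not held. For Krt8 and Vim it was 0.

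By root mean square difference over 12 arrays, after each gene was centred on its own mean, the genes most like Krt14 were Insig1 (0.18 log2 units), which retains sterol sensors in the endoplasmic reticulum, Upk3b (0.20), a uroplakin of urothelium and mesothelium, and Cux1 (0.22), a homeobox factor. The median over 3018 candidates was 0.42. Like Krt14, each of the 3 had its highest value on T10 replicate 2, and its lowest was on control replicate 1 (Cux1, as for Krt14) or T50 replicate 1. Because these genes were picked for closeness on the same 12 arrays, shared high and low arrays follow in part from the choice. Insig1 differed from control by 0.50, 0.07 and 0.36 at the 3 doses, and none of the 3 genes passed against control. Those most like Lmnb1 were Lats1 (0.10), a kinase of the Hippo pathway, Arhgap19 (0.10), and Sec24b (0.10), a coat protein of transport vesicles, where the median over 3017 candidates was 0.22. Like Lmnb1, all 3 had their lowest value on T10 replicate 3, which again follows in part from the choice.

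**Figure D3:**
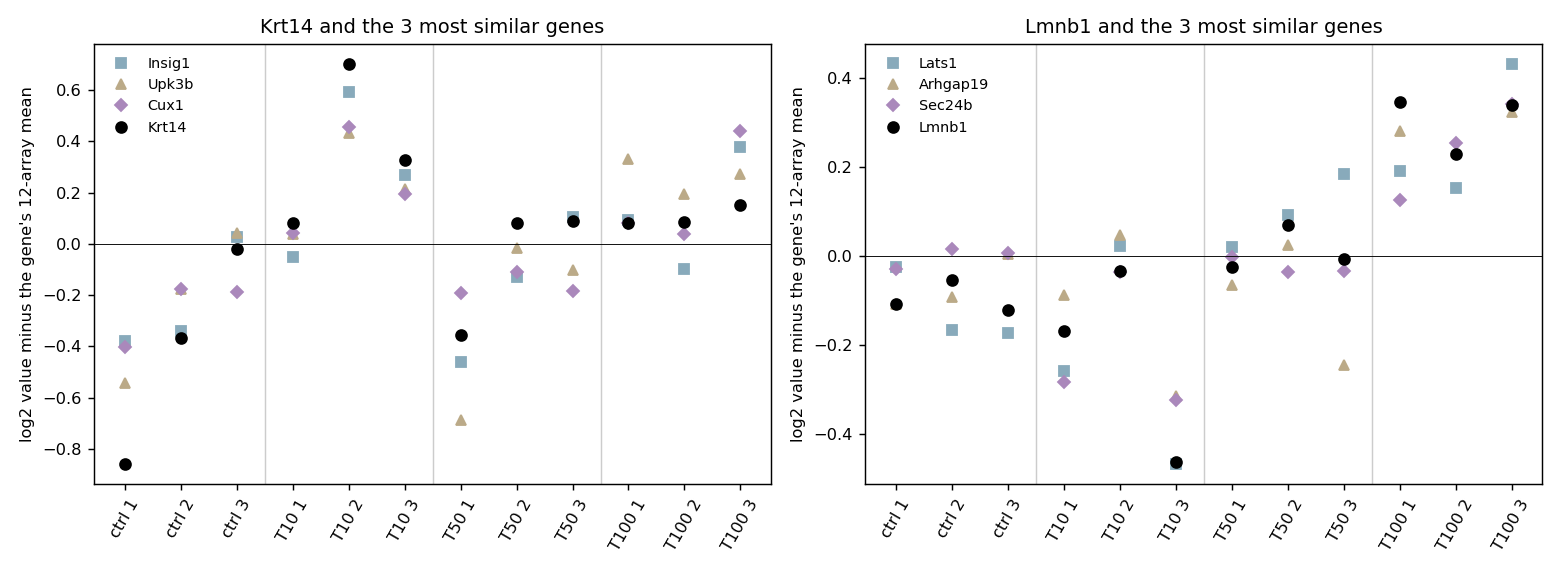
Log2 value minus the gene's own 12-array mean (y axis) on each array (x axis) for Krt14 and Lmnb1 (black) and the 3 genes most like each. Krt14 and the 3 genes beside it are highest on T10 replicate 2, and Lmnb1 and its 3 neighbours are lowest on T10 replicate 3 and above 0 on all T100 arrays. The genes were picked for closeness on these same arrays, so such likeness is in part built in.

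Among the rest of the keratin family, signal above background was rare. Of 30 other keratins on the list, 1 was above background in a group, Krt17, a type I keratin of basal and stressed epithelium that differed from control by -0.11, -0.08 and 0.28 at the 3 doses without passing. Krt80, a type II keratin that was below background, fell by 0.34 at 10 µM (adjusted p = 0.0128) and by 0.28 at 100 µM (adjusted p = 0.0270). It was at -0.23 at 50 µM (adjusted p = 0.0608). Krt80 was the 1 of the 30 called, beside 0.869% of all genes at 10 µM and 1.46% at 100 µM. Counting every keratin with a probe set of its own, a count made after the values were seen, 2 of 23 type I genes (Krt14 and Krt17) and 1 of 22 type II genes (Krt8) were above background in any group. Krt5, the partner of Krt14, shares its probe set with Krt77, and that probe set ran from 3.71 to 3.80.

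Of 12 other intermediate filament genes, 3 were above background in a group (Nefh, Prph and Iffo2). At 10 µM 1 was called, beside 0.869% of all genes. Nefh, the heavy neurofilament chain, read 7.89, 7.90 and 7.77 in control and 6.90, 7.18 and 7.08 in T10, with no overlap. It fell by 0.80 ± 0.14 (SE) at 10 µM (adjusted p = 0.0301) and was at -0.22 and -0.45 at 50 and 100 µM. At 100 µM it passed in 3 of 21 alternatives: quantile normalization (-0.54; adjusted p = 0.0377), centring (-0.52; 0.0167) and the 95th percentile covariate (-0.67; 0.0328). With that covariate it was at -0.42 at 10 µM. Prph, a type III filament of peripheral neurons, was at 0.58 at 100 µM (adjusted p = 0.267). Lmnb2, the other B-type lamin, was below background.

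Of 14 genes that link filaments to desmosomes, membranes and chaperones, 5 were above background in a group. At 10 and 100 µM 1 was called, Cryab, beside 0.869% and 1.46% of all genes. This small heat shock protein, which binds desmin and vimentin, was below background and fell by 0.43 (adjusted p = 0.0143) and 0.31 (adjusted p = 0.0461). Of the 14, 10 lay below control at 10 µM, 8 at 50 µM and 10 at 100 µM. The share of all genes that lay below control was not counted, and 9 of the 14 were not above background in any group. Over genes above background the median change was -0.09 at 10 µM and 0.05 at 100 µM, and over all genes 0.00 at both. The count is therefore not read as a shift of the list. Plectin (Plec), desmoplakin (Dsp) and dystonin (Dst), which anchor filaments at junctions or other cytoskeletal fibres, were above background and did not pass. Dsp was at 0.41, 0.20 and -0.04 at the 3 doses, and Dst at -0.44, -0.40 and -0.43 (adjusted p of 0.230, 0.294 and 0.207). Pkp2, a desmosomal plaque gene, was at -0.37, 0.03 and 0.61 (adjusted p = 0.0508 at 100 µM). Of 19 lamina partners and prelamin processing genes, 8 were above background. At 10 µM 2 were called, both lower and both below background, beside 0.869% of all genes. They were Syne1, a nesprin that ties the nucleus to the cytoskeleton (-0.32; adjusted p = 0.00980; -0.16 and still called with the median over its probe sets), and Fntb, a subunit of the enzyme that farnesylates lamins (-0.26; adjusted p = 0.0428). Zmpste24, the protease that matures prelamin A, was above background and at 0.02, 0.23 and 0.39 without passing, and the lamin B receptor gene Lbr was at 0.01, 0.21 and 0.17.

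At 50 µM none of the 75 genes on these 4 lists was called by limma, beside 1.31% of all genes. Krt80 and Fntb passed there after quantile normalization (adjusted p of 0.0330 and 0.0397), and Krt80, Fntb and Syne1 with the 95th percentile covariate (0.0284, 0.0263 and 0.0331). The share of all genes called lower is not given here, so the direction of the list calls is not read as a trait of the lists. The list medians at 10, 50 and 100 µM were 0.00, 0.00 and -0.01 for keratins, 0.02, 0.03 and 0.01 for other filament genes, -0.08, -0.01 and -0.02 for linkers, and -0.07, 0.01 and 0.02 for lamina genes. By the F test Pkp2 (adjusted p = 0.0121) and Tmpo, which encodes the lamina-associated LAP2 proteins (adjusted p = 0.0499), passed as well. Both were named after their values were seen. Tmpo passed in 4 of 20 alternatives. Pkp2, above background in only 1 group, passed in 19 of 20 and failed with the 95th percentile covariate (adjusted p = 0.294). Without control replicate 2 the calls of Krt80, Nefh, Cryab, Syne1 and Fntb at 10 µM all ended, at adjusted p of 0.0629, 0.121, 0.0629, 0.0514 and 0.165. Krt80 also lost its call without control replicate 1 or T10 replicate 1 or 3, Cryab without T10 replicate 1, and Nefh when any of 6 further arrays was left out (the other controls, T10 replicates 1 and 3, T50 replicate 2, T100 replicate 1). Fntb was called in 2 of 12 such fits, those without T10 replicate 2 or T100 replicate 3. At 100 µM the call of Krt80 ended without control or T100 replicate 1 or 2, at adjusted p of up to 0.104, and Cryab was called in 2 of 12 such fits, with adjusted p of up to 0.129. With the 95th percentile covariate none of the 5 was called at 10 µM (adjusted p from 0.339 to 0.621), nor with only the 2 groups compared (from 0.0545 to 0.108). Over all genes those 2 settings called 15 and 31 at 10 µM, beside 192 in the main fit. Every T10 array lay lower on that percentile (9.36 to 9.48) than every control array (9.53 to 9.61). The covariate is thus bound up with the group, so calls lost under it cannot be read as a trait of these 5 genes. The covariate also ended the call of Cryab at 100 µM (0.122). With only the 2 groups compared, Krt80 (0.146) and Cryab (0.0849) also lost their calls at 100 µM. Centring ended the calls of Krt80 (0.0861), Syne1 (0.0677) and Fntb (0.151) at 10 µM, and the intensity trend that of Fntb (0.0501).

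**Figure D4:**
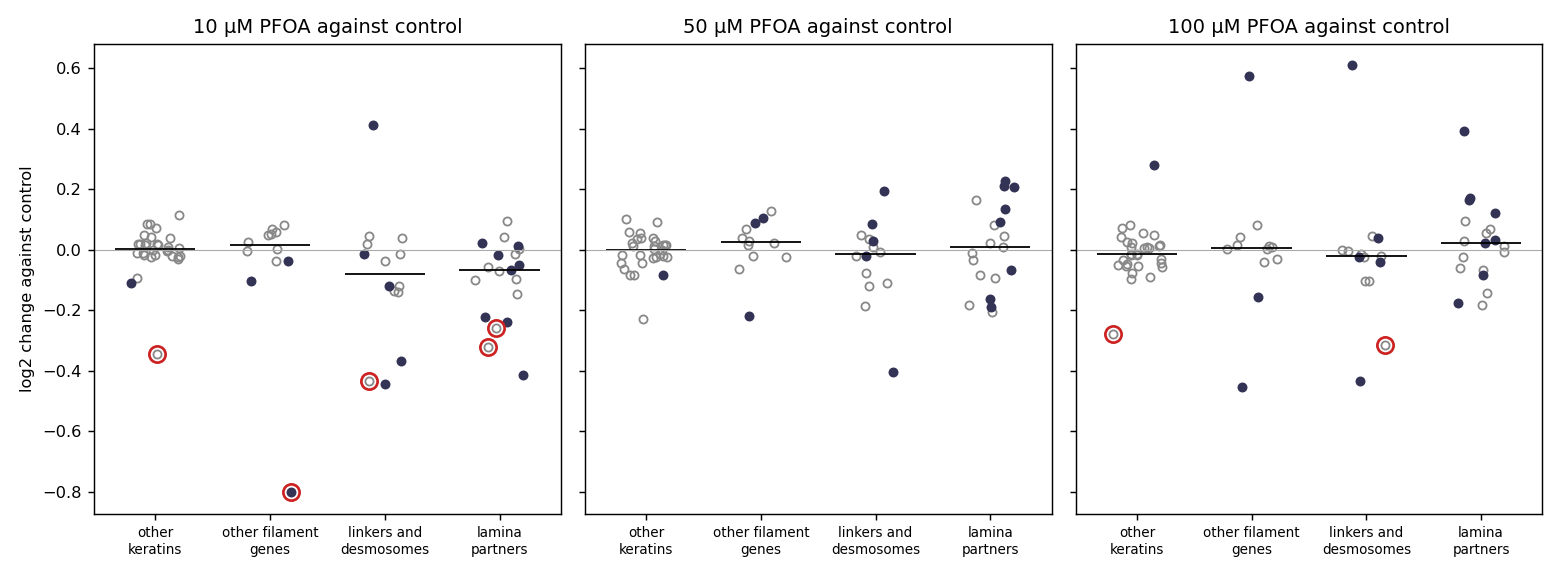
Log2 change against control (y axis) for the genes of 4 lists (x axis) at 10, 50 and 100 µM PFOA; filled points were above background in a group, open points were not, red rings mark adjusted p under 0.05, and lines are list medians. At 10 µM 5 genes are ringed, all lower, at 50 µM none, and at 100 µM Krt80 and Cryab.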

How the data were processed

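RNA from 12 TRL1215 samples was hybridised to Affymetrix rat arrays after amplification of 100 ng with the WT Plus kit, per the labels' protocols. The deposited table holds 1 log2 intensity for each of 70580 probe sets and array; the log base was inferred from its range of 2.87 to 19.93, and the authors' background correction, summary and normalization are not given in the sources used here. Of the probe sets, 23446 carried 1 symbol, 505 several and 44891 none, beside 1738 controls; Entrez numbers updated the symbols (22077 matched, 1 renamed). The brightest probe set by 12-array mean stood for each gene.

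limma 3.58.1 in R 4.3.3 fitted the 4 group means to all 22093 genes on all 12 arrays (lmFit, eBayes, prior degrees of freedom 1.71; two-sided). Adjusted p-values follow Benjamini-Hochberg over those genes, and 0.05 was the threshold. The number of arrays limits the precision. No block was fitted. The steps were tested on simulated data. The 10 genes, the lists and the tests were chosen with earlier results of these data known. By rule, the list genes named were those called against control, up to 6 a list; any other gene named from a list was chosen after its values were seen; similar genes were sought, 3 each, for genes whose group means spanned at least 0.5. Alternatives covered normalization, filters, held values, prior, probe sets, block, covariate and each array left out.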

Additional observations from a re-analysis of the deposited data

How the results depend on the processing

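With only genes above background 5 of the 10 genes were tested, and with held genes left out also 5, so counts under those settings are of 5. Under all alternatives 0 of the genes tested were called for T50 against control and for T50 against T10. For T10 against control the count of 0 became 1 (Krt14) after quantile normalization or centring on genes above background. For T100 against control it became 1 after quantile normalization (Krt14), and 1 (Lmnb1) with only genes above background, with held genes left out and with only the 2 groups compared; without single arrays it ran from 0 to 1. For T100 against T10 the count of 1 became 0 after quantile normalization, with the 95th percentile covariate and with only the 2 groups compared, and ran from 0 to 1 without single arrays. Centring made it 7, with 10324 of all genes called; it moved Krt8 and Vim, whose deposited values do not vary, by -0.18, and Krt19 from 0.01 to -0.17. For T100 against T50 the count of 0 ran from 0 to 1 without single arrays. The F test's count stayed at 1 after quantile normalization and centring, but the gene was Krt14 (adjusted p of 0.0390 and 0.0411) and not Lmnb1 (0.315 and 0.0618). The count became 0 with the replicate block and with the covariate, and ran from 0 to 1 without single arrays. The replicate block left the counts of the 10 genes in the 6 comparisons between groups as they were, and ended the list calls of Nefh (0.0811) and Fntb (0.0953) at 10 µM and of Krt80 (0.0640) and Cryab (0.0587) at 100 µM (adjusted p). The labels do not say whether replicate numbers pair the arrays. Of 18 same-number correlations 3 were over 0.1 (range -0.29 to 0.23). In 13 of 36 cases an array was nearest its own number, with 3 numbers to choose from each time. With 3 arrays a group, this check cannot show that pairing is absent. The cause of these changes was not tested. Signal limits Krt7, Krt18, Krt19, Nes and Des, which are below background, and held values limit Krt8, Vim, Lmna and Krt14.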

Other observations

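Probe sets that carry several keratin symbols stood outside every comparison. There were 3 of them, and all lay below background on every array. The one shared by Krt6c and a Krt6a pseudogene ran from 3.73 to 4.14, the one shared by Krt77 and Krt5 from 3.71 to 3.80, and the one shared by Krt33a, Krt34, Krt31 and Krt33b from 3.52 to 3.66.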
